A study of Mus musculus with 4 samples.

Results

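The 35 genes described here encode proteins of the lysosome and the transcription factors that regulate it. They were taken by name, and each of the 35 was found in GENCODE release M21 on mouse build GRCm38, among 21938 protein-coding genes on the chromosomes measured. DNA methylation of these genes was measured in microglia, macrophages that live in the brain, by bisulfite sequencing of the whole genome. Bisulfite turns unmethylated cytosine into a base read as T, so the share of reads that still show C gives the methylation level of a position, from 0 to 1. The 4 samples fell into 2 groups, 2 of genotype WT and 2 of genotype IRF8KO, the latter named for IRF8, a transcription factor of microglia and other myeloid cells. Both groups were untreated C57BL/6J mice of 3 months, and 40000 sorted microglia gave the DNA of a sample. The labels do not give the knockout allele or the cells that lack IRF8. Transcripts were not measured, so the cell type could not be checked against marker genes, and a level in such a bulk sample cannot tell a change within microglia from a change in the mixture of sorted cells.

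Lysosomes are acid compartments that degrade proteins, lipids, sugars and nucleic acids taken up by the cell or delivered by autophagy. A proton pump, the V-ATPase, acidifies them, membrane proteins carry lipids and ions across their wall, and soluble hydrolases do the digestion, each enzyme with its own substrate. TFEB, MITF and TFEC belong to a family of basic helix-loop-helix leucine zipper factors that bind the hexamer CACGTG and can switch on many lysosome genes together through the CLEAR element, in which GT stands before this hexamer and AC after it. In microglia, lysosomes digest debris, myelin and dying cells, and inherited loss of lysosomal proteins damages the brain. Methylation of CpGs is high over most of a mammalian genome and low at most active promoters and many active enhancers.

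The values are those of the authors' own comparison of the groups. One of the authors' deposited tables holds 269406 single positions whose posterior probability of a difference was at least 0.95, called listed positions here, with a level for each group, a standard error and a false discovery rate (FDR). The other holds 3389 differentially methylated regions, runs of neighbouring cytosines, each with its length, its number of cytosines, a mean level for each group and an area score. Row numbers in the position table reach 42734461, which was taken as the number of positions tested, so 0.63% of tested positions were listed. The groups carry numbers rather than names in both tables, and the genotype behind each number is not assigned here. Differences are the level in the first group minus that in the second, and "higher" or "lower" always refers to the first group. The gene Irf8 itself had 1 region and 59 listed positions within 10000 bp, none under an FDR of 0.05, and these do not identify the knockout. No value per sample, read count or depth is in the tables, so the spread between replicates cannot be given here beyond the authors' standard errors. With 2 samples against 2, an exact permutation test of a single value could not go below p = 0.333. Neighbouring positions are not independent values: in the authors' deposited table, 96.0% of the 68947 pairs of listed positions 1 bp apart had the identical difference. Of the listed positions 78.0% lay on a CpG of GRCm38, and the others are called off-CpG.

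Regions lay in or within 10000 bp of 11 of the 35 lysosome genes, or 31.4%, beside 9.19% of all protein-coding genes. The 11 were Tfeb, Tfec, Atp6v0a1, Atp6v0d1, Atp6v0d2, Scarb2, Grn, Galc, Manba, Lipa and Ctsh. For 6 of them the regions were higher, beside 5.17% of all genes, and for 5 they were lower, beside 4.69%. Tfeb alone had more than 1 region, so both directions could occur only there, and its regions were all lower. Listed positions were found at 26 of the 35 genes, or 74.3%, beside 64.1% of all genes. At 14 genes, or 40%, at least 1 position had an FDR under 0.05, beside 30.8% of all genes. The regions thus stood further above their background than the single positions did. Inside the gene alone, regions were found at 7 of the 35, beside 6.72% of all genes, and positions under FDR 0.05 also at 7, beside 20.1% of all genes, so that the latter count was at its background. The 9 genes with no listed position were the enzymes Arsa, Gaa, Gla, Glb1 and Gusb, the peptidases Ctsa and Ctsf, and the membrane proteins Mcoln1 and Npc1. By row number, about 3224 tested positions fell to Glb1 and about 647 to Gla. Such counts per gene, here and below, were interpolated between the row numbers of listed positions. They therefore do not show how well a gene without listed positions was measured.

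Gene length bears on these counts, since a long gene offers more cytosines. Regions were found at 3.16% of all genes shorter than 10000 bp, 6.6% of genes from 10000 bp to below 30000 bp, 13.4% of genes from 30000 bp to below 100000 bp and 26.1% of genes of 100000 bp or more. In the same order, 1 of 5, 1 of 13, 9 of 16 and 0 of 1 lysosome genes had a region. If each lysosome gene had the share of its length class, 3.42 of the 35 would have a region, against the 11 found. With classes of the number of tested positions in place of length, the same sum came to 4.01. The shares by length would give 23.6 genes with a listed position and 10.9 genes with a position under FDR 0.05, where 26 and 14 were found. Most of the excess of genes with a region therefore lay among the 16 genes from 30000 bp to below 100000 bp, where 56.3% had one. No test was made of these counts, because the genes were not drawn at random and 26 of the 35 windows hold another protein-coding gene. The genes were also chosen with earlier results of these data known, so the list is not independent of the regions counted.

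**Figure D1:**
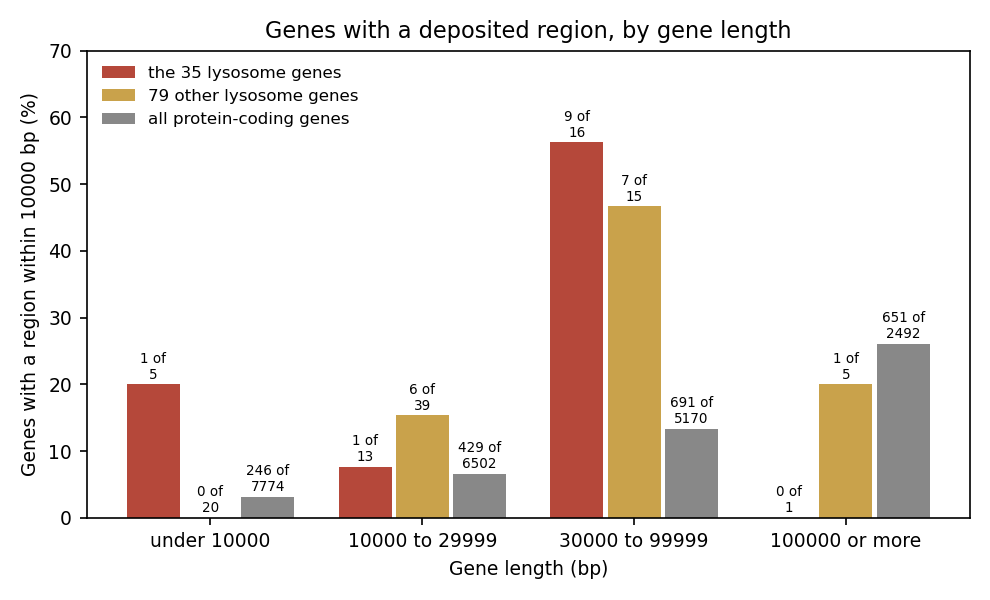
Percent of genes with a region in or within 10000 bp of the gene (y axis), by length of the gene in 4 classes (x axis), as bars for the 35 lysosome genes, the 79 other lysosome genes described last and all protein-coding genes, each with its counts above it. In the class from 30000 bp to below 100000 bp, 9 of 16 lysosome genes and 7 of 15 other lysosome genes had a region, beside 13.4% of all genes of that class.

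Within the 35 windows, 462 of about 51754 tested positions were listed, or 0.893%, in 88 clusters in which neighbouring positions lay no more than 500 bp apart. Of these, 282, or 61.0%, were higher, beside 61.9% of all listed positions. Of the 101 positions under FDR 0.05, 80 were higher, or 79.2%, beside 58.1% of all such positions. These 101 fell into 26 clusters, and 73 of them lay inside the regions, so their direction rests on few places. At 9 of the 14 genes with such positions all of them were higher, at Atp6v0d1, Lipa and Scarb2 all were lower, and Atp6v0a1 and Npc2 had both. Atp6v1b2, Ctsc and Lamp2, among the 9, had a single such position each. The same shares over all genes were not counted. Standard errors near these genes were like those elsewhere, with a median of 0.104 in the authors' deposited table against 0.103 over all listed positions. The median absolute difference of positions under FDR 0.05 was 0.477 near the lysosome genes and 0.414 over all.

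**Figure D2:**
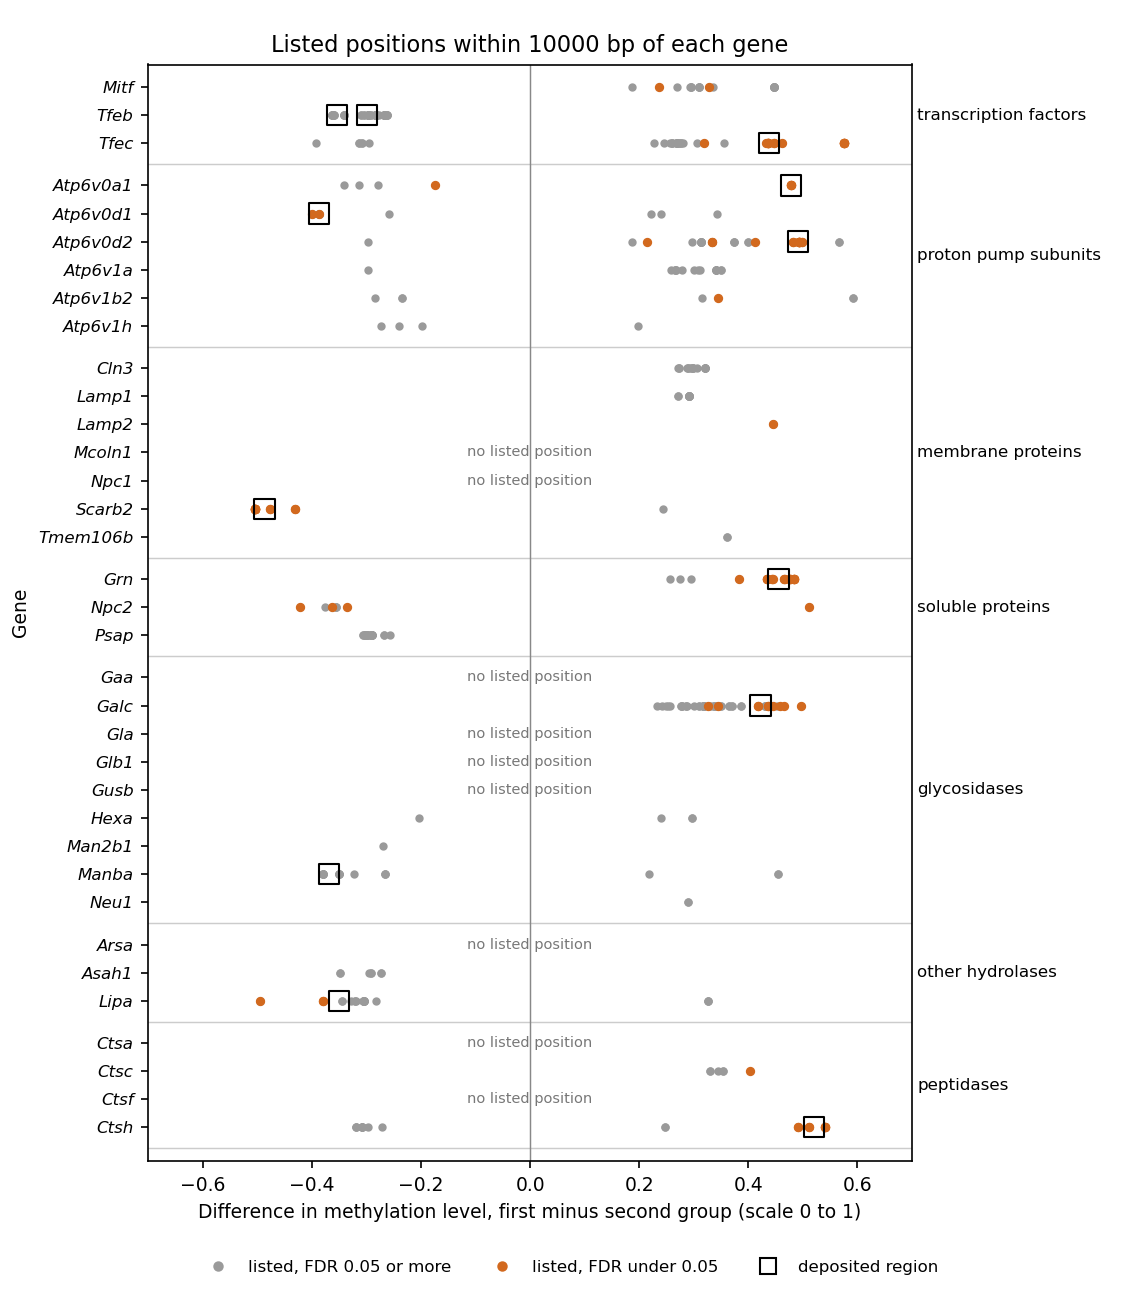
Difference in methylation level, first minus second group (x axis, on the scale from 0 to 1), of each listed position in or within 10000 bp of each of the 35 genes (y axis, by role), in orange where the FDR was under 0.05 and in grey otherwise, with an open square at the mean difference of each region. Tfeb, with 48 listed positions, lies wholly to the left of 0 and has no orange point, while all 56 positions of Galc lie to the right.

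The authors' deposited table places 12 regions at the 11 genes, 6 higher and 6 lower, beside 53.3% higher among all regions. Of the 12, 7 lay in introns, 1 in a coding exon and 4 outside the gene. The 4 regions outside, at Atp6v0a1, Atp6v0d2, Ctsh and Grn, were all higher, while 53.7% of all regions that lie outside but within 10000 bp of a gene were higher. Of the 8 inside a gene, 6 were lower and the 2 at Galc and Tfec were higher, beside 53.3% higher among all regions that overlap a protein-coding gene. Each of the 12 lay nearer to its lysosome gene than to any other protein-coding gene. In the 6 higher regions the first group's level ranged from 0.631 to 0.808 with a median of 0.707, and the second group's from 0.193 to 0.289 with a median of 0.240. In the 6 lower regions the first group's level ranged from 0.269 to 0.519, median 0.395, and the second group's from 0.623 to 0.868, median 0.817. The levels of the 2 groups did not overlap within either set, and neither group was near 0 or 1 throughout. Regions were called for a difference and split here by its sign, so this separation is partly set by the selection. Over all higher regions the medians were 0.740 in the first and 0.311 in the second group. Over all lower regions they were 0.332 and 0.772. The median absolute difference of the 12 regions was 0.430, with a range from 0.299 to 0.520, beside 0.405 over all regions. Their median length was 215.5 bp, beside 199 bp, and their median number of cytosines 11, beside 9.

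**Figure D3:**
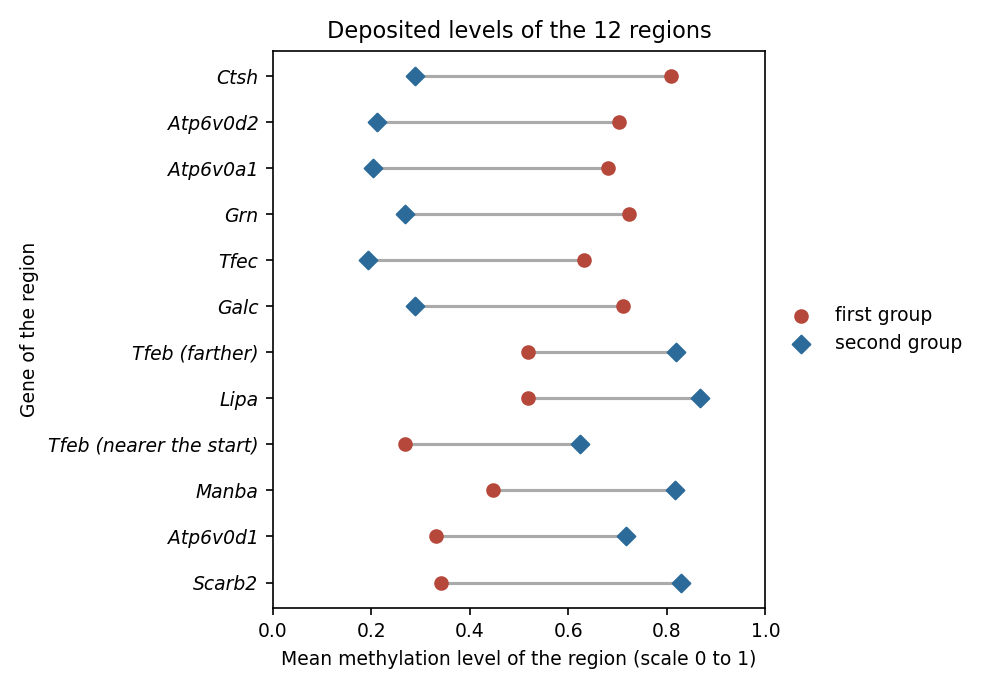
Mean methylation level (x axis, from 0 to 1) of each of the 12 regions, named by gene (y axis), with a red circle for the first group and a blue diamond for the second, joined by a line. The 6 higher regions run from 0.193 to 0.289 in the second group up to 0.631 to 0.808 in the first, and the 6 lower regions run the other way.

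Among the transcription factors, Tfeb and Tfec stood in opposite directions. Tfeb encodes the factor best known for driving lysosome genes when the cell lacks nutrients, and its gene spans chr17:47737030-47792419. All 48 of its listed positions were lower and lay in intron 1, in clusters of 1, 26 and 21 positions, the latter pair holding its 2 regions. The region nearer the start, chr17:47770136-47770280, had a level of 0.269 in the first and 0.623 in the second group over 13 cytosines, a difference of -0.354 in the authors' deposited table. The other, chr17:47773838-47773908, had 0.519 and 0.818 over 8 cytosines, a difference of -0.299. None of these positions was under FDR 0.05, and the smallest values in the regions were 0.0666 and 0.0782. Such regions are not rare, since 750 of the 3389 hold no position under FDR 0.05. The sequences of both regions are given because Tfeb was the only one of the 35 genes with more than 1 region. They were read 5′ to 3′ on the plus strand of GRCm38, and here and below capitals mark the listed positions, so that a capital CG is a CpG listed on both strands.
Tfeb region nearer the start: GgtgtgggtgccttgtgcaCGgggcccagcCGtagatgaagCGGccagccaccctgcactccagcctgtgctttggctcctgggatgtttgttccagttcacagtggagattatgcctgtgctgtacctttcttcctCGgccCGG
Tfeb region farther from the start: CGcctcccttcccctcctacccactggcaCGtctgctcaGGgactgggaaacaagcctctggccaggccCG

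Tfec, a family member found mainly in macrophages, had the highest share of listed positions of the 35 genes, 54 of about 883 tested, or 6.12%. Of these 48 were higher and 6 were lower, the latter in a single cluster of intron 2, and all 17 positions under FDR 0.05 were higher. Its region in intron 2, chr6:16855111-16855367, had levels of 0.631 in the first and 0.193 in the second group over 19 cytosines, a difference of 0.438, with 8 cytosines under FDR 0.05 and a smallest FDR of 0.0173. The larger differences lay in intron 1, outside any region. At position 16889726, 8715 bp after the start, the authors' deposited table gives 0.754 and 0.179, a difference of 0.575 with a standard error of 0.0928 and an FDR of 4.26e-06. This position is off-CpG. A cluster of 2 positions nearer to the start, centred 6912 bp from it, differed by 0.575 with a smallest FDR of 7.99e-06, and another 15389 bp from the start differed by 0.446 with 0.000854. The differences thus lay in both intron 1 and intron 2. The region of intron 2 is given because it holds the most listed cytosines at this gene.
Tfec region of intron 2: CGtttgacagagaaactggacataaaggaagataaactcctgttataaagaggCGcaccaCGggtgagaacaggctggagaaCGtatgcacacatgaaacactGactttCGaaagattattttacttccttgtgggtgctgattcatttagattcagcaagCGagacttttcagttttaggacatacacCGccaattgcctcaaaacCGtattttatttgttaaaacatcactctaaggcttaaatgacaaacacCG

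Mitf encodes the factor of pigment cells, osteoclasts and mast cells that gives the family its name, and its gene, at 214298 bp, is the longest of the 35. It had no region, and 22 of about 4327 tested positions were listed, all higher, in 7 clusters. The authors' deposited table gives 0.938 and 0.610 at position 97841203 in intron 1, a difference of 0.328 with a standard error of 0.0777 and an FDR of 0.0252. Past the end of the gene, at position 98030049, the difference was 0.237 with an FDR of 0.0485. A cluster of 8 positions in intron 2 differed by 0.446 to 0.447, but its smallest FDR was 0.342. The 3 factors therefore gave 124 of the 462 listed positions, with Tfeb lower throughout, Mitf higher throughout and Tfec higher in 48 of 54.

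**Figure D4:**
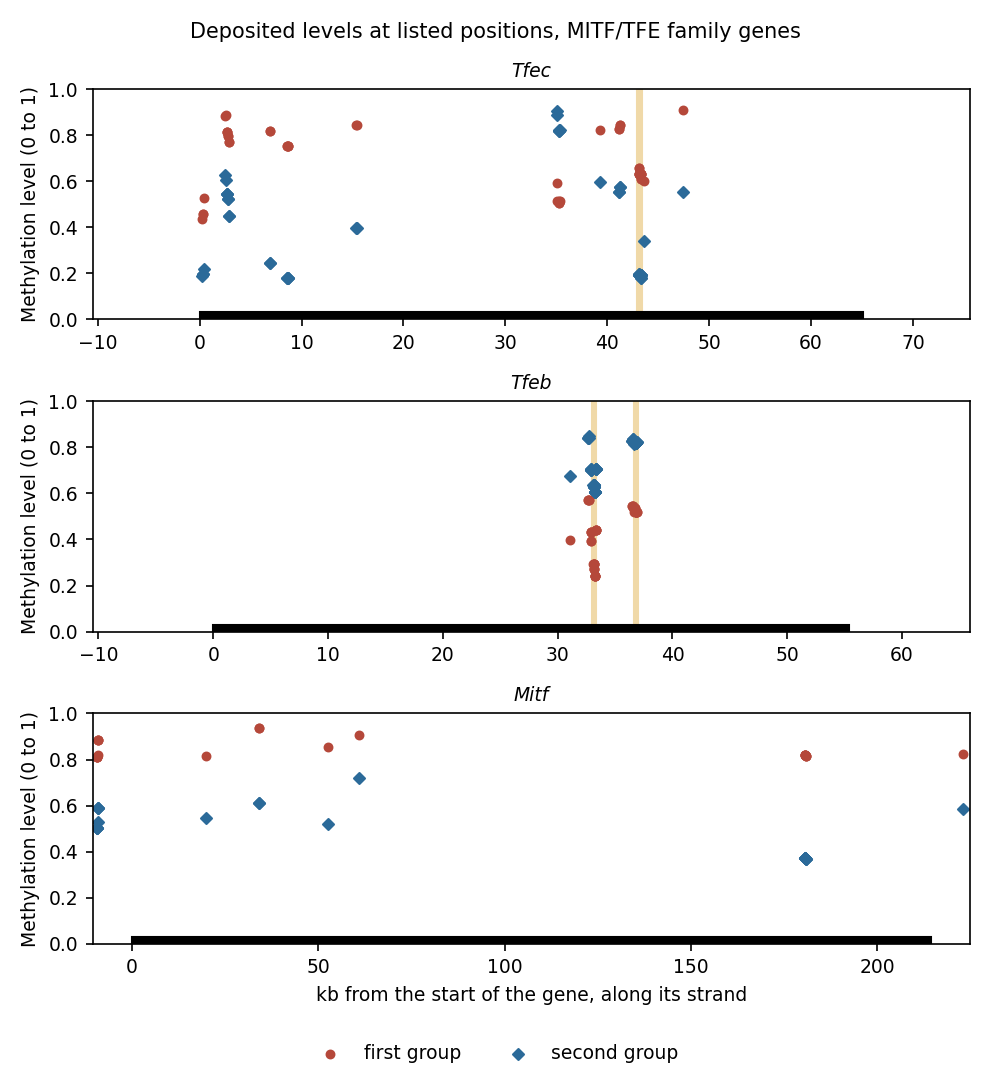
Methylation level (y axis, from 0 to 1) of each listed position along Tfec, Tfeb and Mitf in the first group (red circles) and the second (blue diamonds), with distance from the start of the gene in kb on the x axis, a black bar for the gene and shading, slightly widened, for the regions. Red lies below blue throughout Tfeb and above it throughout Mitf, and in Tfec red lies above blue except at 6 positions of intron 2.

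All 6 genes of proton pump subunits had listed positions, 91 in all, and 3 had a region. All but Atp6v1b2 were from 30000 bp to below 100000 bp long, where 79.1% of all genes had a listed position and 13.4% a region. In the shorter class of Atp6v1b2 these shares were 58.0% and 6.6%. The d subunit joins the membrane-embedded part of the pump to its stalk and exists as the common form d1 and the form d2, known from osteoclasts, kidney and some macrophages. The regions at their genes differed in opposite directions. At Atp6v0d2 the region chr4:19869468-19869755 lay 7086 bp past the end of the gene, with 0.703 in the first and 0.212 in the second group and a difference of 0.491 in the authors' deposited table. Of its 12 cytosines 11 were under FDR 0.05, and the smallest FDR was 0.000176, at an off-CpG position. It belongs to a cluster of 32 listed positions, all higher, that reaches to 5047 bp from the gene. The smallest FDR at any of the 35 genes, 9.35e-12, was in this cluster but outside the region, at position 19870653, where the levels were 0.913 and 0.501 and the difference 0.412 with a standard error of 0.0501. This position is off-CpG, and 60.1% of the region's bases are marked as repeats in the reference. The 37 listed positions of Atp6v0d2 made up 4.51% of about 821 tested. The region is given because it holds a motif named further on.
Atp6v0d2 region past the gene's end: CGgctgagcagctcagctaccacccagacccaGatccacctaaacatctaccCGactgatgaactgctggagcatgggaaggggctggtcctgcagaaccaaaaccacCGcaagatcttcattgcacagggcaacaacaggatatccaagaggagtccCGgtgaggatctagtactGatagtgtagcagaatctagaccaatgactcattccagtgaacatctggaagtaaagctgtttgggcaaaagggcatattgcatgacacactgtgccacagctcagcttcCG

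At Atp6v0d1 the authors' deposited table has a short region in intron 1, chr8:105547169-105547245, with 0.330 and 0.717 over 6 cytosines and a difference of -0.387. Of the 6 cytosines 1 was under FDR 0.05, at 0.0131, and it is off-CpG. The CpG positions of the region had FDRs from 0.229 to 0.417, and a CpG position just outside it had 0.0422. Of the 15 listed positions of Atp6v0d1 12 were lower, in the cluster of this region, and 3 were higher, elsewhere in its introns and none under FDR 0.05. Atp6v0a1, which encodes the a1 form of the membrane subunit through which protons pass, had a region 7407 bp before its start, chr11:101001842-101002045. Its levels were 0.681 and 0.203 over 7 cytosines, a difference of 0.478 with a smallest FDR of 0.0157, and 44.6% of its bases are marked as repeats. Nearer to the start, at position 101007865, the authors' deposited table gives the opposite direction, 0.726 against 0.901, a difference of -0.175 with a standard error of 0.0360 and an FDR of 0.00246. Atp6v1b2, a subunit of the part of the pump that splits ATP, had 1 position under FDR 0.05, with 0.747 against 0.402 and an FDR of 0.000743, but this position lies inside the neighbouring gene Slc18a1. The other subunits of that part, Atp6v1a with 17 listed positions and Atp6v1h with 4, had none under FDR 0.05.

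Of the 7 membrane proteins only Scarb2 had a region, in intron 7 at chr5:92453066-92453313. SCARB2, also called LIMP-2, carries the enzyme glucocerebrosidase to the lysosome. The region's level was 0.341 in the first and 0.828 in the second group in the authors' deposited table, a difference of -0.487. All 12 of its cytosines were under FDR 0.05, with differences from -0.503 to -0.430 and a smallest FDR of 0.00343. This was the only one of the 12 regions in which every cytosine passed. It is printed for that reason and for a motif named further on.
Scarb2 region of intron 7: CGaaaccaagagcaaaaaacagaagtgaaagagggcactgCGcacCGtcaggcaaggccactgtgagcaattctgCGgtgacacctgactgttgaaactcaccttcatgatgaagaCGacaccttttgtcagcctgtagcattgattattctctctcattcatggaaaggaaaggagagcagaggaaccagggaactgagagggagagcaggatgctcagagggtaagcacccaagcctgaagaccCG

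LAMP1 and LAMP2 are the most abundant glycoproteins of the lysosomal membrane. Lamp2 had 3 listed positions in intron 4, and 1 of them, with 0.941 and 0.496 and a difference of 0.446 in the authors' deposited table, had an FDR of 0.0468. Lamp1 had 12 listed positions, all higher and in intron 1, with none under FDR 0.05. The 17 listed positions of Cln3, mutated in a childhood form of neuronal ceroid lipofuscinosis, were all higher, lay in the neighbouring gene Apobr and had no FDR under 0.05. Tmem106b had 2 listed positions and none under FDR 0.05. Mcoln1, a calcium channel of the lysosome, and Npc1, a cholesterol carrier, had no listed position.

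Grn encodes progranulin, a secreted and lysosomal protein whose loss causes frontotemporal dementia or, when complete, a lysosomal storage disease. The authors' deposited table gives its region, chr11:102425433-102425877, as the highest-ranked of the 12 by area score, at 492 of 3389. It lay 4438 bp before the start of the gene, with 0.723 in the first and 0.268 in the second group over 21 cytosines and a difference of 0.455. Of the 21 cytosines 20 were under FDR 0.05. The smallest FDR was 0.000227 at the off-CpG position 102425628, where the difference was 0.483 with a standard error of 0.0894. No other protein-coding gene lay within 10000 bp of the region, the next being Fam171a2 at 11104 bp. At 6734 bp Grn was one of 5 lysosome genes shorter than 10000 bp and the only one of these with a region. The stretch of the region with the most listed positions, chr11:102425466-102425765, holds 17 of the 21.
Grn region before the start, 300 bases: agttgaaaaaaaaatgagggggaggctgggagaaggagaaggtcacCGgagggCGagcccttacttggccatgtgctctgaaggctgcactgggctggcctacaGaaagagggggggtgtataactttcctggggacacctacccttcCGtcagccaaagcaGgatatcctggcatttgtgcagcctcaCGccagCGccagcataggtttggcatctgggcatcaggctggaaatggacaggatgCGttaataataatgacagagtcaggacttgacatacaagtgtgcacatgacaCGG

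Npc2, which hands cholesterol to NPC1, had no region but 4 positions under FDR 0.05. Of these 3 lay past the end of the gene, in a cluster of 9 lower positions that begins 6630 bp away. The authors' deposited table gives 0.279 and 0.701 at position 84747859, a difference of -0.422 with an FDR of 0.00330. The other, in a cluster 4005 bp before the start and nearer to Isca2, was higher, with 0.911 and 0.399, a difference of 0.511 and an FDR of 0.000191. Psap, the precursor of the saposins that help enzymes reach lipids, had 27 listed positions, all lower, 26 of them in a single cluster of intron 1, with none under FDR 0.05.

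Of the 9 glycosidases, Galc and Manba had a region. Galc encodes galactosylceramidase, which breaks down a lipid of myelin and is lost in Krabbe disease. All 56 of its listed positions were higher, the largest number at any of the 35 genes, and 10 were under FDR 0.05. The authors' deposited table gives its region in intron 3 with 0.711 and 0.289 over 17 cytosines, a difference of 0.422, with 7 cytosines under FDR 0.05 and a smallest FDR of 0.00760. The region also overlaps an exon of a transcript with a retained intron. Before the start of the gene lay 4 further clusters, a single position 1955 bp from it and clusters of 10, 4 and 8 positions that are nearer to Gpr65 than to Galc. The smallest FDR of the window, 2e-05, was in one nearer to Gpr65, at position 98266489, with 0.672 and 0.177 and a difference of 0.496. It cannot be told from these tables which of the neighbouring genes such positions belong to.

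Manba encodes beta-mannosidase, which trims mannose from the sugar chains of glycoproteins. Its region in intron 13, chr3:135555260-135555388, had 0.448 in the first and 0.816 in the second group over 10 cytosines, a difference of -0.369 in the authors' deposited table. None of its cytosines was under FDR 0.05, the smallest value being 0.0647. The region is printed because of the motif it holds.
Manba region of intron 13: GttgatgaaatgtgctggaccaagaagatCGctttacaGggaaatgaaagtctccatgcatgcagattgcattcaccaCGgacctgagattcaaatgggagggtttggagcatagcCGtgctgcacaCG

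Hexa, Neu1 and Man2b1 had 4, 2 and 1 listed positions, none under FDR 0.05, and Gaa, Gla, Glb1 and Gusb had none. The positions of Hexa lay in the neighbouring gene Tmem202 and that of Man2b1 in Wdr83. Of the other hydrolases, Lipa, the acid lipase that frees cholesterol from its esters, had the only region in a coding exon, exon 6, reaching into the intron beside it. In the authors' deposited table this region, chr19:34507032-34507258, had 0.518 and 0.868 over 6 cytosines, a difference of -0.350, with 2 cytosines under FDR 0.05 and a smallest FDR of 0.0140. A further position under FDR 0.05 lay in a cluster 9212 bp before the start of Lipa, also lower, with 0.322 and 0.818 and an FDR of 0.00247. Asah1, acid ceramidase, had 7 listed positions, all lower, with no FDR under 0.05, and Arsa had none.

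Among the 4 peptidases, Ctsh had a region and Ctsc a single position under FDR 0.05. CTSH is an aminopeptidase and CTSC activates serine proteases of granules. In the authors' deposited table the region of Ctsh, chr9:90048287-90048672, lay 5480 bp before the gene with the largest difference of the 12, 0.520, from 0.808 in the first and 0.288 in the second group over 9 cytosines. Of these 8 were under FDR 0.05, with differences from 0.490 to 0.541, and the smallest FDR was 9.77e-09, at an off-CpG position. Inside the gene, 10 listed positions of intron 1 were lower, none of them under FDR 0.05. At Ctsc position 88272392, which lies 5693 bp before the gene, had 0.821 and 0.417, a difference of 0.403 and an FDR of 0.0271.

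**Figure D5:**
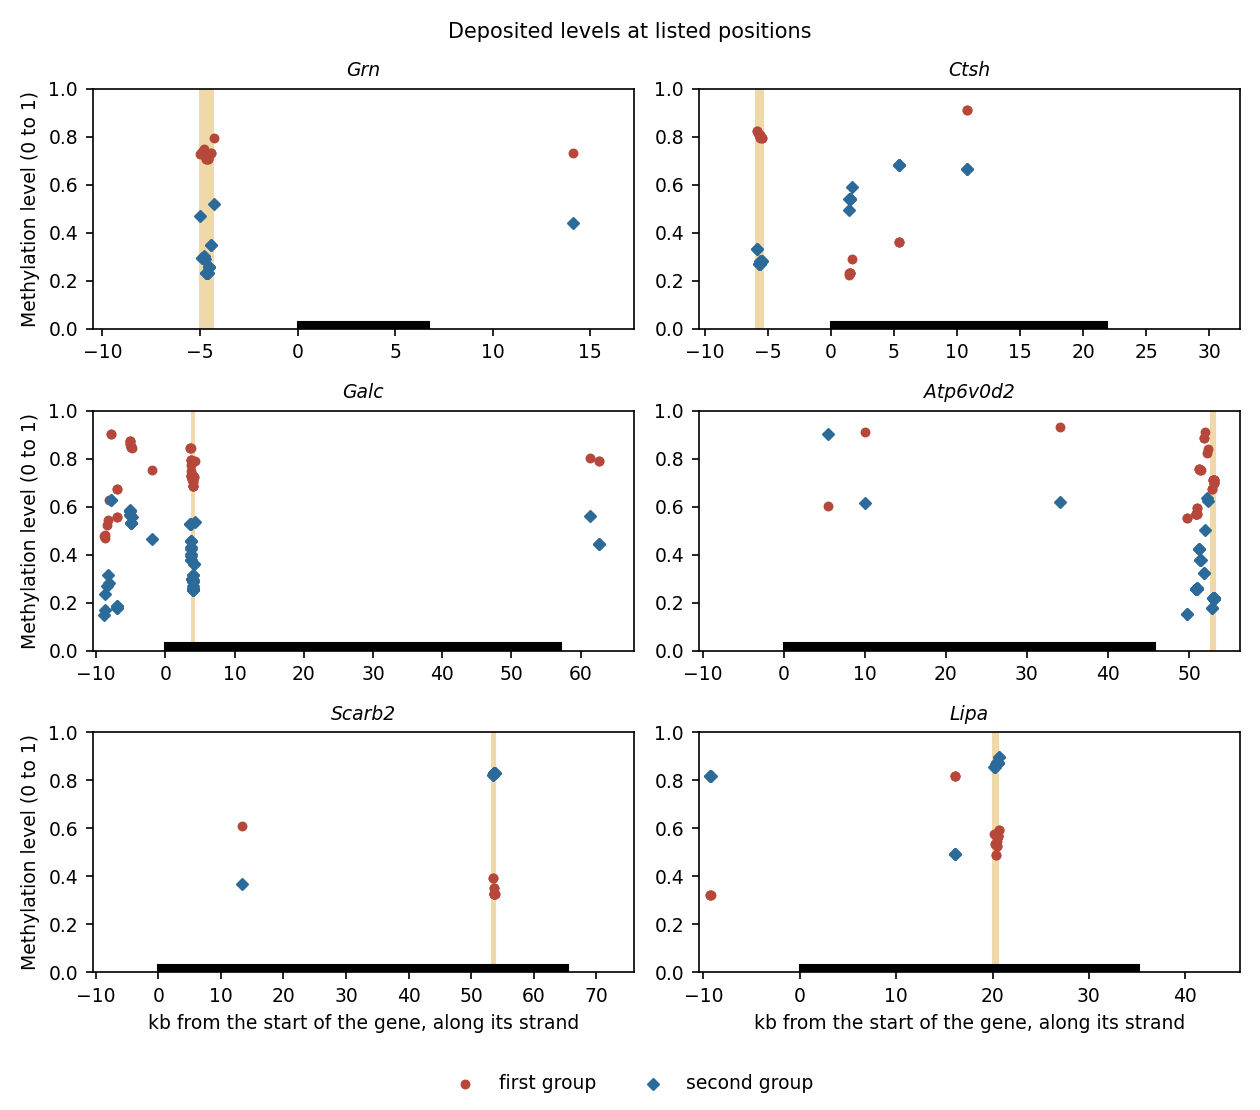
Methylation level (y axis, from 0 to 1) of each listed position along Grn, Ctsh, Galc, Atp6v0d2, Scarb2 and Lipa in the first group (red circles) and the second (blue diamonds), with distance from the start of the gene in kb on the x axis, a black bar for the gene and shading, slightly widened, for the regions. The shaded regions of Grn, Ctsh and Atp6v0d2 lie outside the gene with red above blue, and those of Scarb2 and Lipa lie inside it with red below blue.

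The regions were searched on both strands for 4 motifs. The ETS-IRF composite element, GGAA followed after any 2 bases by GAAA, is bound by PU.1 together with IRF8 or IRF4. It was found in 17.6% of all lower regions and 2.16% of all higher regions. At the lysosome genes it was found in 2 of the 6 lower regions, those of Manba and Scarb2, and in 0 of the 6 higher regions. In the printed Manba region it begins at base 40, 1 bp from a listed position, and in that of Scarb2 at base 164, 46 bp from one. The AP-1 motif was searched as TGANTCA, with any base at N. It was found in 2 of the 12 regions, beside 10.4% of all regions. The matches were TGACTCA at base 202 of the Atp6v0d2 region and TGATTCA at base 140 of the Tfec region, both higher. CACGTG was in 0 of the 12 regions, beside 5.19% of all, and the CLEAR element also in 0, beside 0.0295%. These counts are small, and a match is a run of letters, with no binding measured.

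Promoter windows, from 250 bp before to 50 bp after the start, were matched by symbol in RefSeq sequences of GRCm38 for 29 of the 35 genes. Asah1, Atp6v0d2, Atp6v1b2, Atp6v1h, Ctsh and Npc1 were not matched. CACGTG was found in windows of 11 genes, or 37.9% of 29, beside 9.18% of 16522 protein-coding genes. The 11 were Arsa, Atp6v0d1, Atp6v1a, Cln3, Ctsa, Ctsf, Gaa, Gla, Glb1, Lamp1 and Mcoln1. The CLEAR element, of which CACGTG is the centre, was found at Cln3 alone, beside 0.49% of all. None of the 29 genes had a listed position in a promoter window, beside 0.563% of all genes. Of the 11 genes, Atp6v0d1 alone had a region and the only positions under FDR 0.05, and 7 were among the 9 genes with no listed position at all. The same counts were not made over all genes with CACGTG in a promoter window, and a link to the motif was not tested. By length, 48.6% of all genes under 10000 bp had a listed position. The share was 58.0% from 10000 bp to below 30000 bp and 79.1% from 30000 bp to below 100000 bp. Within 10000 bp of the 35 genes stood 310 copies of CACGTG, whose own CpG was listed in 2, or 0.645%, beside 0.763% of the 153154 copies near all protein-coding genes. These 2 lay 9209 bp before Lipa, with a difference of -0.496 and an FDR of 0.393 in the authors' deposited table, and in intron 1 of Tfec, with 0.319 and 0.363.

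A list of 79 other lysosome genes was counted the same way. Regions were found at 14 of them, or 17.7%, against 6.52 genes from the shares by length. The regions at Atp6v1e1 and Pld3 and the higher region at Ppt1 lay inside other protein-coding genes. With each region counted only for its nearest protein-coding gene, 12 of the 79 had a region, beside 7.8% of all genes. Of the 14, 6 had higher regions only, 5 lower only and 3 both, and of their 24 regions 12 were higher and 12 lower. The median absolute difference was 0.434. Positions under FDR 0.05 were found at 25 of the 79, or 31.6%, close to the 30.8% of all genes, and the shares by length would give 22.0. The region with the largest area score was that of Rptor, a subunit of the mTORC1 kinase that holds TFEB in the cytosol, over 1706 bp of intron 4 with 0.262 and 0.737, a difference of -0.475 in the authors' deposited table. Next came Atp6v0a2, another pump subunit, with a difference of -0.546 in intron 1, and Sort1, a sorting receptor for lysosomal proteins, with -0.513. In the same table the largest regions of the calcium channels Tpcn1 and Tpcn2 differed by -0.435 and -0.390, and that of Ctsk, a peptidase of osteoclasts, by -0.432. The Tpcn2 region lay 2842 bp past the gene, and a smaller region inside Tpcn2 was higher by 0.375. Among higher regions the largest area score was again at Rptor, in intron 24, with 0.665 and 0.196, a difference of 0.470, so this gene had regions in both directions. It was followed by area score in the authors' deposited table by Sgsh, which degrades heparan sulfate, with a difference of 0.437, the sialic acid carrier Slc17a5 with 0.355, the tetraspanin Cd63 with 0.346 and Hgsnat, also of heparan sulfate breakdown, with 0.562.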

How the data were processed

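The 4 libraries were whole-genome bisulfite libraries, made per the labels' protocols from 50 ng of DNA with 8 PCR cycles and paired 75 bp reads. Trim Galore, Bismark and the build mm10 are named in the submitters' processing notes, without versions. Methylation levels and their differences are fractions from 0 to 1, set by the authors in a comparison of 2 numbered groups, and neighbouring positions share values, so the levels appear smoothed. The area score of a region and the p-value, standard error and FDR of a position are the authors' deposited values. No caller, setting or coverage is given by these sources, so the depth behind a value is unknown. The tables held 0 unused columns per sample.

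Rows were joined to GENCODE M21 genes (reference GRCm38.p6) with a reach of 10000 bp, counted over all protein-coding genes and by length class, with Python 3.11.15, pandas 2.3.3 and numpy 2.4.6, and figures drawn with matplotlib 3.10.9. Coordinates are 1-based, and the counting code was tested on simulated data. No test was added and replicates could not be compared, since the tables give values for groups and not for single samples, and the labels do not say whether they came from separate animals. Every gene with a region or a position under FDR 0.05 is named with values, others only by their listed positions, and of the other lysosome genes the 10 with the largest area score. The genes, lists and motifs were chosen with earlier results of these data known. Distance, FDR threshold, region size, CpG status and the gene a row is counted for were varied. The sequence of the Galc region is not reported here.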

Additional observations from a re-analysis of the deposited data

How the results depend on the processing

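Of 60 alternatives, 51 kept a count within 1.5 times, a share within the exact 95% binomial interval of its main value, or a difference within the median standard error. For the share of regions that were higher, 50% of 12, that interval is wide: it was 25% of 8 inside the gene, 33.3% of 9 within 5000 bp, 61.5% of 26 within 50000 bp and 66.7% of the 9 with a position under FDR 0.05, so neither direction prevailed throughout. Some of the 51 could hardly move a result: all 12 regions held at least 5 cytosines, and joining positions into clusters left the gene counts at 26 and 14. Counted only inside the gene, regions were found at 7 of the 35 genes (6.72% of all genes) and positions under FDR 0.05 at 7 (20.1% of all genes), and the share of such positions that were higher was 61.9% of 42. With at least 10 cytosines per region, 7 of the 35 genes (5.14% of all genes) and 8 of the 79 other lysosome genes had one. Within 50000 bp, 28 of the 79 did (18.8% of all genes). At an FDR under 0.001, 7 of the 35 genes remained (14.4% of all genes), and 100% of their 18 positions were higher. The higher share of all positions under this threshold was not counted. Several of the 18 share a cluster, at Ctsh and at Atp6v0d2. Those of Atp6v1b2, Npc2 and Galc lie in or nearer to Slc18a1, Isca2 and Gpr65. Over all 462 listed positions the higher share was 61.0%. No paired analysis was possible because neither table gives a value for a single sample. For that reason leaving out each replicate and a minimum coverage were not run either. Depth sets an unknown limit.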

Other observations

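The dispersion of a position, the authors' estimate of spread, is called shared here where at least 1 group has the most common value of the table. At 13 of the 14 lysosome genes with a position under FDR 0.05, the position with the smallest FDR had a shared dispersion. The same share over all genes was not counted. Of the 101 positions under FDR 0.05 near these genes, 40 had such a shared dispersion, or 39.6%, beside 65.2% of all 50425. At 5 of the 14 genes, Atp6v0d1, Atp6v0d2, Ctsh, Grn and Tfec, the position with the smallest FDR was off-CpG. At 4 of the 14 the position with the smallest FDR lay in a region. Of the 462 listed positions near the lysosome genes, 98 were off-CpG. Over the whole table, 82.0% of the 59168 off-CpG positions were a G of the plus strand. The part of dispersion and of off-CpG positions in the order of the genes was not tested.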
